A study of Danio rerio with 20 samples.

Results

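The acute phase response is the switch in plasma protein production that the vertebrate liver makes after infection or injury. Cytokines of the IL-6 family bind a receptor that holds the subunit il6st, JAK kinases then activate the transcription factor STAT3, and hepatocytes raise the secretion of positive acute phase proteins while lowering that of negative ones. Pentraxins, which assemble from identical subunits into rings and mark microbes and dying cells for clearance, are the classical positive proteins in mammals; C-reactive protein and serum amyloid P are the best known. Zebrafish carry several C-reactive protein genes side by side.

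The genes described here were 10 listed symbols: the C-reactive protein genes crp1 to crp7, serum amyloid A (saa), haptoglobin (hp), which binds free haemoglobin, and leap2, a peptide first described as an antimicrobial product of the liver. Of these 10, 8 were matched by symbol to an identifier among the 32520 genes of the count tables. No identifier carried the symbol crp4 or saa, and these were not analysed here. The members were taken to have been selected on the values of crp1 in the CreLox experiment, where it was low in zebrafish with HCC. The others were taken to have been added as its relatives or as genes of the same response. Whether HepABC values also entered the choice is not known. For the members, therefore, the CreLox comparisons are given as a description without p-values. Where members past a threshold in comparisons that include CreLox fish are counted, the choice is taken to have used CreLox values. Those counts test nothing. The HepABC comparison, made in other fish, carries a test. The adjusted p-values of the HepABC comparison for the members hold only if the choice did not use HepABC values. An identifier listed under the symbol SAA2 (ENSDARG00000045999) may be the zebrafish saa gene, which was not settled here. It was not counted as saa and had at most 0.898 CPM in any fish.

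Liver mRNA from 20 male zebrafish in 2 experiments was sequenced, with 1 library per fish. The CreLox experiment held 4 zebrafish with HCC (fish 604, 605, 623 and 624) and 2 without HCC (fish 609 and 625), all carrying a tamoxifen-inducible Cre and a lox-switch transgene for activated β-catenin, both driven by the hepatocyte promoter fabp10a, and all given 10 µM 4-hydroxytamoxifen from 3 to 6 dpf. Their 4 controls (fish 621, 622, 628 and 630) carried the Cre driver only and received 0.1% ethanol without tamoxifen over the same days. The response to tamoxifen and to activated β-catenin therefore cannot be told apart. By the study's methods the tamoxifen solution held 0.1% ethanol as well. All 10 were 11 mpf. The HepABC experiment held 5 zebrafish with HCC (fish 317E5, 317E6, 317E9, 317E10 and 317E11), in which fabp10a drove activated β-catenin directly, and 5 HCC-free siblings that carried no transgene (317C1, 317C2, 317C4, 317C5, 317C8). These 10 were untreated and 6 mpf. The study's methods name 1 fish fewer with CreLox HCC than the labels; all labelled fish were used.

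Library totals ranged from 20903187 to 37994885 counts, and 3 counts correspond to between 0.055 and 0.147 CPM (library-scaled counts, with edgeR's TMM factors). Hepatocyte markers (fabp10a, apobb.1, ambp, f2 and SERPINC1) were present in every fish. Their summed level was 10800 to 22500 CPM in HepABC HCC and 31400 to 55800 CPM in non-transgenic controls, and 34400 to 39300 CPM in CreLox HCC and 33500 to 60600 CPM in Cre driver controls. A level in bulk liver cannot tell fewer cells of a type from less RNA per cell. A gene is called significantly dysregulated when its edgeR p-value, adjusted by the Benjamini-Hochberg method over all genes tested, is under 0.05. Without TMM factors the median log2 fold change over all tested genes moved to 0.87 in HepABC HCC and to 0.22 in CreLox HCC; the changes below are relative to the TMM scale. Levels of different genes are not compared with each other, since gene lengths were not used here.

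In an annotation of another zebrafish assembly, crp1 to crp7 stand in numerical order along 1 chromosome, in a stretch of 8 protein-coding genes of which 7 are these. Reads that fit several of these related genes may have been lost or assigned to a neighbour in the counting, which was not tested. Each crp gene is nevertheless described by its own counts, because the members behaved differently among themselves.

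crp1 (ENSDARG00000071454), the gene on which the choice was taken to rest, was close to absent from livers with HCC in both models. In CreLox HCC it had 0, 0.0981, 0.197 and 0.182 CPM in fish 604, 605, 623 and 624, which are 0, 3, 6 and 4 counts. In CreLox zebrafish without HCC it had 0.406 CPM in fish 609 and 0.243 CPM in fish 625, and in the Cre driver controls 16, 13.4, 0.535 and 8.06 CPM in fish 621, 622, 628 and 630. Thus every CreLox fish, with or without HCC, lay below every control, although control fish 628 came within a few counts of the fish without HCC. The log2 fold change against these controls was -6.34 (SE 1.05) in CreLox HCC and -4.88 (SE 1.30) in CreLox zebrafish without HCC. Between the CreLox groups the log2 fold change was -1.46 (SE 1.28) and the groups did not overlap in CPM, but fish 623 with HCC and fish 625 without HCC both had 6 counts, so that only the scaling of the libraries separated them.

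In the HepABC experiment crp1 had 1 count in fish 317E9 and none in the other 4 zebrafish with HCC. The non-transgenic controls had 3.13, 0.33, 1.34, 1.99 and 2.22 CPM in fish 317C1, 317C2, 317C4, 317C5 and 317C8. The groups did not overlap. With the fish with HCC set to the level of 3 counts per library, crp1 was at least 28-fold lower in HepABC HCC. It did not pass edgeR's filter on low counts there. An exact permutation test of its CPM over the 10 fish, two-sided, was added after the data were seen and gave p = 0.00794. This is the smallest value that 252 regroupings allow, and groups that do not overlap always give it. The test therefore adds nothing to the separation already described. With all genes of at least 1 count fitted in edgeR, the log2 fold change of crp1 was -7.88 (SE 0.91, adjusted p = 1.61e-04). The fish with HCC gave a single count to this fit, so the size of the fold is an extrapolation. Its SE was derived from the test statistic and does not measure the error of a fold resting on 1 count. The gene entered the fit through its counts in the controls, and nothing further is read from this p-value.

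crp3 (ENSDARG00000042613) was lower in HCC of both models. In HepABC HCC it had 173, 41.8, 324, 71.5 and 83.6 CPM in fish 317E5, 317E6, 317E9, 317E10 and 317E11, against 2890, 2240, 2510, 1910 and 1360 CPM in non-transgenic controls 317C1, 317C2, 317C4, 317C5 and 317C8. Every fish with HCC lay far below the lowest control, and the fall was significant (log2 fold change -4.04, SE 0.55, adjusted p = 4.48e-04 from edgeR). In CreLox HCC it had 174, 873, 813 and 833 CPM in fish 604, 605, 623 and 624, against 3040, 1880, 1970 and 1050 CPM in Cre driver controls 621, 622, 628 and 630 (log2 fold change -1.60, SE 0.48). Fish 604 was far below the other fish with HCC, and all 4 lay below the lowest control. CreLox zebrafish without HCC, with 1660 and 2300 CPM in fish 609 and 625, lay within the range of the controls (log2 fold change -0.04, SE 0.57) and above all fish with HCC. The CreLox groups with HCC (4 fish) and without HCC (2 fish) thus did not overlap in crp3, at a log2 fold change of -1.56 (SE 0.55). How many of all genes separate groups this small was not tested, and edgeR called only 1 of 16837 genes in that comparison.

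crp5 (ENSDARG00000056498) had the widest range of the members. In HepABC HCC it had 0.272, 20.1, 61.7, 4.29 and 21.1 CPM in fish 317E5, 317E6, 317E9, 317E10 and 317E11. In the non-transgenic controls it had 36.7, 1.81, 3150, 2320 and 487 CPM in fish 317C1, 317C2, 317C4, 317C5 and 317C8. The highest control exceeded the lowest 1740-fold, and controls 317C1 and 317C2 lay inside the range of the fish with HCC. The fall was significant with all fish (log2 fold change -5.89, SE 1.79, adjusted p = 0.026 from edgeR), but without control 317C4 or without any of the fish 317E6, 317E10 and 317E11 with HCC the adjusted p-value lay between 0.0509 and 0.0591, so that the call was lost, and with limma voom it was 0.0516. In the CreLox experiment the levels did not overlap: crp5 had 9.05, 46.4, 20.8 and 33.3 CPM in fish 604, 605, 623 and 624 with HCC, against 784, 278, 428 and 132 CPM in controls 621, 622, 628 and 630 (log2 fold change -3.92, SE 0.65). The 2 fish without HCC lay above all fish with HCC, at 75.7 CPM in fish 609 and 151 CPM in fish 625, and only fish 625 reached into the range of the controls (log2 fold change -1.86, SE 0.78).

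crp2 (ENSDARG00000056462) had 6.25, 7.81, 76.4, 18.3 and 16.2 CPM in fish 317E5, 317E6, 317E9, 317E10 and 317E11 with HepABC HCC, against 76, 75, 517, 382 and 292 CPM in controls 317C1, 317C2, 317C4, 317C5 and 317C8. Fish 317E9 reached the level of the 2 lowest controls, and the other 4 fish with HCC lay below all controls. The fall was significant (log2 fold change -3.50, SE 0.83, adjusted p = 0.00804 from edgeR). In CreLox HCC the levels were 23.1, 10.7, 49.8 and 64.7 CPM in fish 604, 605, 623 and 624, and in the Cre driver controls 99.9, 55, 140 and 139 CPM in fish 621, 622, 628 and 630, so that fish 624 overlapped control 622 (log2 fold change -1.59, SE 0.51). The CreLox zebrafish without HCC had 32.1 and 28.8 CPM in fish 609 and 625, within the range of the fish with HCC and below every control (log2 fold change -1.87, SE 0.67).

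**Figure D1:**
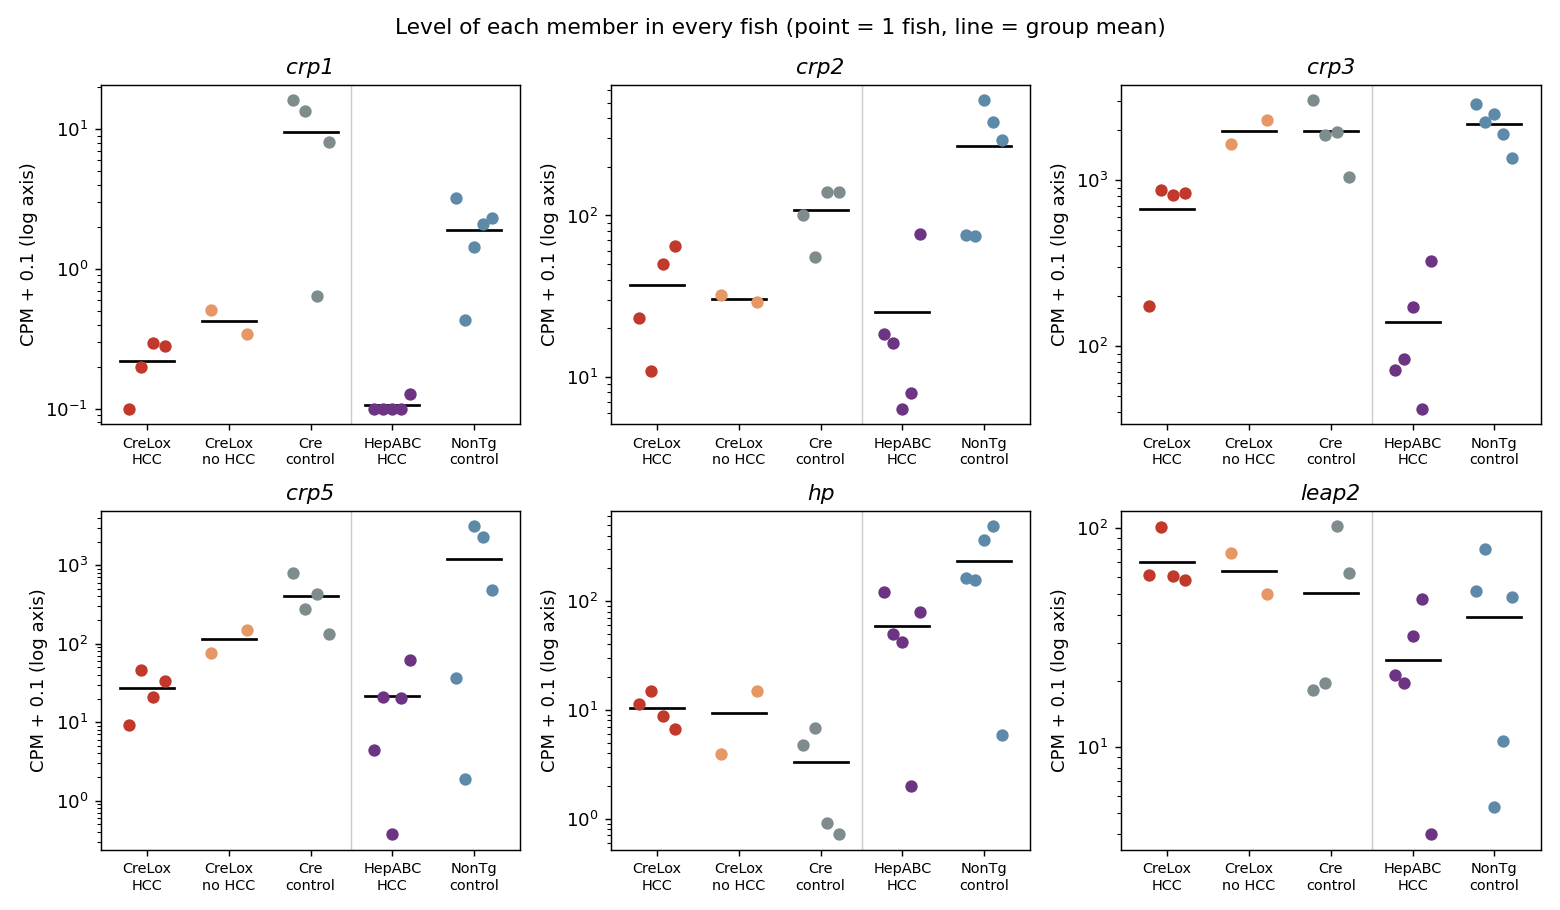
CPM + 0.1 of crp1, crp2, crp3, crp5, hp and leap2 on log axes in every fish (points) of the 5 groups, with the group mean as a line. crp1 and crp3 in HCC lie below all controls of their own experiment in both models, whereas leap2 overlaps in every comparison.

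The remaining pentraxin members were nearly silent. crp6 (ENSDARG00000071457) had at most 2 counts in any fish and crp7 (ENSDARG00000071456) at most 9 counts, in control 628, so neither passed the filter and no difference was detectable at this depth. Zero counts allow a level of up to 0.147 CPM in the shallowest scaled library; this limit covers counting error only.

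hp (ENSDARG00000051890) had log2 fold changes of opposite sign in the 2 models and was not called in HepABC HCC. It had 41.9, 1.89, 79.8, 122 and 49.9 CPM in fish 317E5, 317E6, 317E9, 317E10 and 317E11 with HepABC HCC, against 164, 155, 364, 488 and 5.76 CPM in controls 317C1, 317C2, 317C4, 317C5 and 317C8. Of the 5 controls, 4 exceeded every fish with HCC, and control 317C8 fell among the lowest (log2 fold change -2.07, SE 1.01, adjusted p = 0.137 from edgeR). In CreLox HCC it had 11.1, 14.9, 8.7 and 6.51 CPM in fish 604, 605, 623 and 624, against 4.67, 6.7, 0.802 and 0.616 CPM in Cre driver controls 621, 622, 628 and 630, with only fish 624 inside the controls' range (log2 fold change 1.65, SE 0.73). The fish without HCC had 3.79 CPM in fish 609 and 14.8 CPM in fish 625 (log2 fold change against the controls 1.51, SE 0.84), and without fish 625 this value was 0.22.

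leap2 (ENSDARG00000104654) did not separate the groups. It had 32.1, 47.4, 3.89, 21.2 and 19.5 CPM in fish 317E5, 317E6, 317E9, 317E10 and 317E11 with HepABC HCC, against 51.5, 79.9, 5.2, 10.6 and 48.5 CPM in controls 317C1, 317C2, 317C4, 317C5 and 317C8 (log2 fold change -0.72, SE 0.72, adjusted p = 0.473 from edgeR; 0.23 with library size alone). In CreLox HCC the levels were 61, 101, 60.5 and 57.7 CPM in fish 604, 605, 623 and 624, and 77.2 and 50.1 CPM in fish 609 and 625 without HCC, against 18.1, 19.5, 102 and 62.3 CPM in controls 621, 622, 628 and 630. The log2 fold changes against these controls were 0.42 (SE 0.52) with HCC and 0.29 (SE 0.63) without.

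Of the 5 members tested in HepABC HCC, 3 were downregulated (crp2, crp3 and crp5) and none upregulated, with a median log2 fold change of -3.50. Among all 15864 genes tested there, 16.2% were called lower, and 33.7% in either direction, with a median log2 fold change of -0.00. Only crp3 of these 5 had groups that did not overlap, as did 10.5% of all genes in that direction. In CreLox HCC 2 of the 6 members tested (crp1 and crp5) were past the threshold, both lower, where 1.81% of 16837 genes were lower and 4.2% were called in either direction, and 3 (crp1, crp3 and crp5) lay below all controls, as did 5.75% of all genes; the members were chosen with values of that comparison known, and nothing is read from these counts. No member was past the threshold in CreLox zebrafish without HCC against controls, where edgeR called 0.315% of all genes. At an unadjusted p under 0.05 there were 3 members, beside 1712 of all 16837 genes. DESeq2 called 1 member, beside 214 genes higher and 135 lower, and limma voom none. Likewise no member was past the threshold in CreLox HCC against CreLox zebrafish without HCC, where edgeR called 0.00594% of all genes. There 2 members had an unadjusted p under 0.05, beside 514 of all 16837 genes. DESeq2 called no member, beside 4 genes higher and 12 lower, and limma voom none. Nothing is read from these member counts either. The CreLox comparisons share fish, so their values for the members are not independent of each other.

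**Figure D2:**
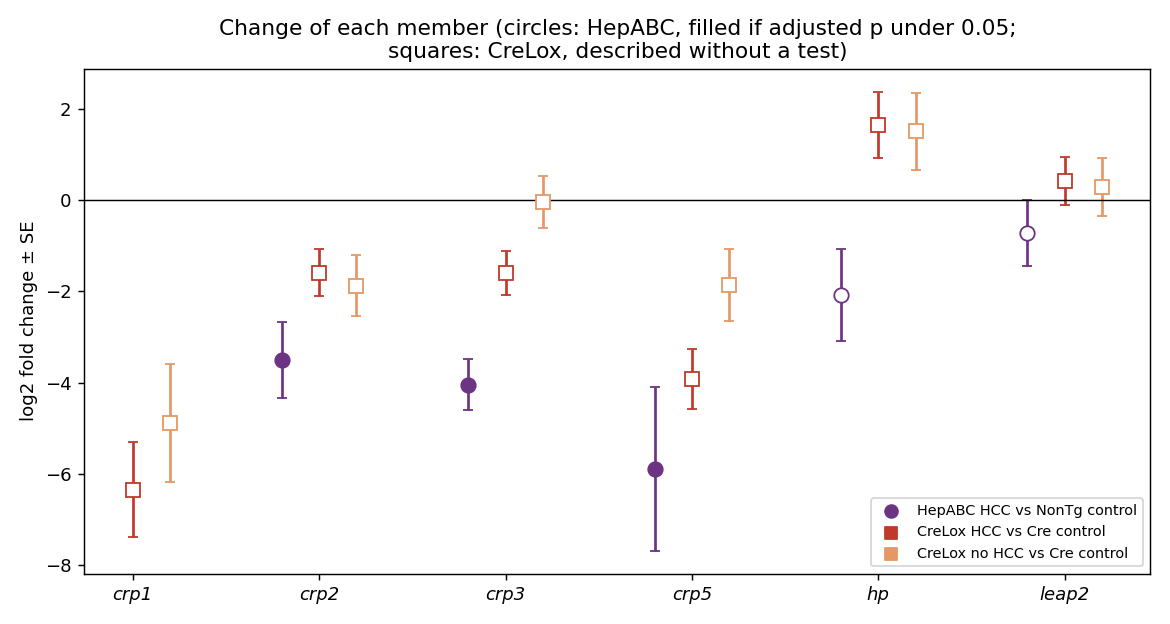
Log2 fold change with an SE derived from the edgeR test statistic for each tested member. The comparisons are HepABC HCC, CreLox HCC and CreLox zebrafish without HCC, each against its own controls. Circles (HepABC) are filled where the adjusted p is under 0.05, and squares (CreLox) are a description without a test. crp3 stands near 0 (-0.04) without HCC and at -1.60 with HCC in the CreLox model, and hp stands on opposite sides of 0 in the 2 HCC models.

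The change in HepABC HCC minus that in CreLox HCC was below 0 for the 6 members that passed the filter, which crp6 and crp7 did not. On the log2 scale it was -1.45 for crp1 (SE 1.20), -1.88 for crp2 (SE 1.01) and -2.42 for crp3 (SE 0.74). For crp5, hp and leap2 it was -1.93 (SE 1.81), -3.70 (SE 1.38) and -1.15 (SE 0.98). The median of this difference over all 18645 genes tested was 0.04. In this fit, which called 11.3% of all genes, 1 of the 6 members (crp3) was past the threshold; the CreLox values enter it, and nothing is read from that count. The models also differ in age, in treatment, in the genotype of their controls, in experiment and in the removal of duplicate reads, and these cannot be told apart. This holds for every difference between the models given here. By group means, crp3 ran from 2180 CPM in non-transgenic controls through 1990 CPM in Cre driver controls, 1980 CPM in CreLox zebrafish without HCC and 673 CPM in CreLox HCC to 139 CPM in HepABC HCC. Only the step between CreLox zebrafish without and with HCC separated ranges that did not overlap. crp1 and crp5 likewise had a single pair of neighbouring groups with separate ranges, CreLox without HCC above CreLox with HCC. No neighbouring groups were separate for crp2, hp or leap2. The group without HCC held only 2 fish, and the share of all genes that separate from it was not tested, so nothing is read from these steps. For crp1, fish 623 with HCC and fish 625 without HCC both had 6 counts.

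The members varied widely between fish of the same group. The standard deviation of log2(CPM + 0.1) within groups in the HepABC experiment was 3.77 for crp5, 2.45 for hp, 1.53 for leap2, 1.37 for crp2 and 0.87 for crp3, against a median of 0.50 over the 15864 genes. These values stood at the percentiles 99.9, 99.3, 96.1, 94.5 and 82.2 of all genes. In the CreLox experiment they were 0.86 for crp3 and leap2, 0.87 for crp2, 1.01 for crp5, 1.24 for hp and larger still for crp1, against a median of 0.47, and all stood between the percentiles 83.3 and 96.2. The order of fish was partly opposite between members. Controls 317C4 and 317C5, which had the highest crp2, crp5 and hp of their group, had its lowest leap2. Fish 317E9, highest in crp2, crp3 and crp5 of the HepABC HCC group, had the lowest leap2 of the experiment at 3.89 CPM. In the Cre driver controls the lowest leap2 stood in fish 621 and 622, the 2 highest in crp1 and hp, but fish 628 combined the highest leap2 with the second highest crp5.

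**Figure D3:**
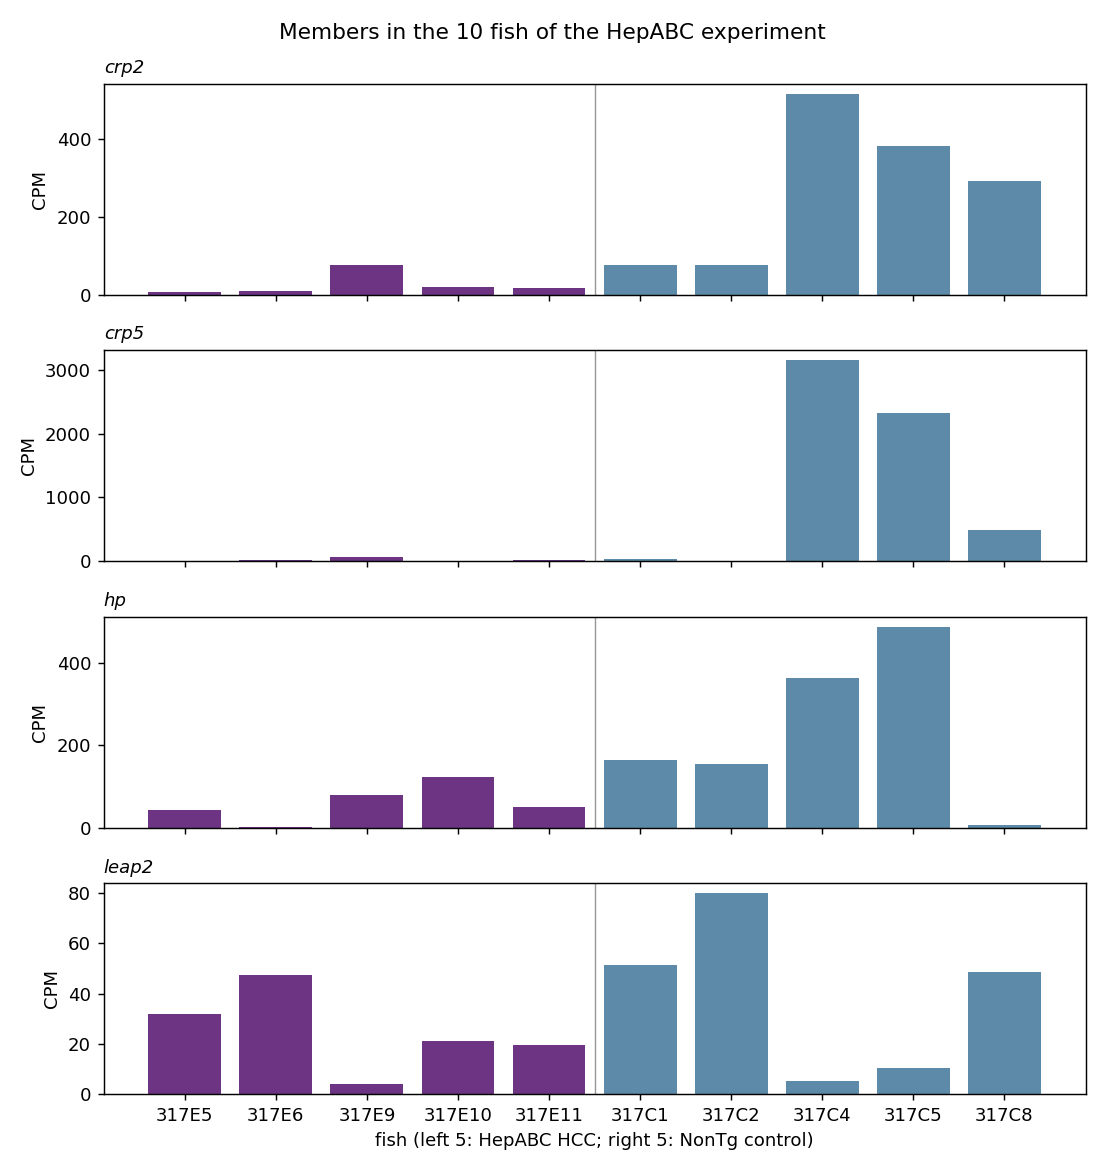
CPM of crp2, crp5, hp and leap2 in each of the 10 fish of the HepABC experiment (bars, linear axes from 0), HepABC HCC at the left and non-transgenic controls at the right. Controls 317C4 and 317C5 hold the tallest bars for crp2, crp5 and hp and the shortest of their group for leap2.

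RNA of other cell types moved with the same groups in the HepABC experiment. All 5 hepatocyte markers were significantly lower in HepABC HCC (median log2 fold change -1.36), as were 11 of 11 tested exocrine pancreas markers (median -8.03) and 4 of 4 erythrocyte markers (median -3.23), and 3 of 5 stellate and endothelial markers (median -1.19), but none of 8 macrophage, 3 biliary, 2 neutrophil or 2 lymphocyte markers was called. The summed erythrocyte markers had 28.4 to 69.8 CPM in HepABC HCC and 309 to 635 CPM in the controls, and the stellate and endothelial markers 32.7 to 48.9 CPM in HepABC HCC and 93.7 to 125 CPM in the controls. The summed pancreas markers had 16.4 to 32.6 CPM in HepABC HCC and 20.7 to 8590 CPM in the controls. The part of hepatocyte, pancreas, erythrocyte, stellate and endothelial RNA in the members' levels was not tested. In CreLox HCC the only marker called by edgeR in any of these lists was the macrophage gene csf1ra, which was lower. All 12 pancreas markers nevertheless had log2 fold changes below 0 there (median -2.92, lowest adjusted p = 0.0854 from edgeR), with sums of 20.3 to 64.6 CPM in CreLox HCC and 57.9 to 734 CPM in Cre driver controls, and their part in the members' CreLox levels was not tested either.

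Serum amyloid P belongs to the same protein family, and its zebrafish gene apcs (ENSDARG00000045089) was the only one of 6 other pentraxin identifiers to pass the filter in the HepABC experiment. It had 517, 747, 471, 469 and 552 CPM in fish 317E5, 317E6, 317E9, 317E10 and 317E11 with HCC, against 5880, 15300, 14500, 15700 and 12700 CPM in controls 317C1, 317C2, 317C4, 317C5 and 317C8. The fish with HCC were close together and all far below the controls (log2 fold change -4.61, SE 0.32, adjusted p = 1.68e-05 from edgeR). In CreLox HCC apcs had 3370, 2020, 2500 and 6490 CPM in fish 604, 605, 623 and 624, against 5180, 7710, 1840 and 810 CPM in controls 621, 622, 628 and 630, and the groups overlapped (log2 fold change -0.15, SE 0.62, adjusted p = 0.9 from edgeR). The difference between these changes was itself significant, at -4.44 on the log2 scale (SE 0.71, adjusted p = 0.0016 from edgeR). PTX3 (ENSDARG00000068275), a long pentraxin that in mammals is made mostly outside the liver, was tested only in the CreLox experiment and had a log2 fold change of -1.44 in CreLox HCC (SE 1.53, adjusted p = 0.602 from edgeR). Control 628 had 184 counts of it and the other controls 0 to 5, and without fish 628 the log2 fold change turned to 2.66.

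Positive acute phase genes other than the members fell broadly in HepABC HCC. Of 29 tested, 25 were downregulated and none upregulated (DESeq2 called 26 lower and 1 higher), which is 86.2% lower beside 16.2% of all genes. The 5 hepatocyte markers were all called lower there too (median log2 fold change -1.36). The part of hepatocyte RNA in the falls of this list and of the negative list below was not tested. All gene lists used here were chosen with earlier results of these data known. Their counts and p-values are therefore not an independent test. With library size alone 19 positive genes were called lower and 1 higher, beside 854 lower and 7955 higher of all 15864 genes. The median log2 fold change of the positive genes was -2.08 on the TMM scale. By size the falls of FN1 (ENSDARG00000006526), which encodes fibronectin, and of the complement genes c3a.2, c3a.3 and c7b led, at -4.73 (SE 0.52), -3.85 (SE 0.33), -3.67 (SE 0.54) and -3.53 (SE 0.95) on the log2 scale, with adjusted p-values from edgeR of 1.49e-04, 5.00e-05, 6.53e-04 and 0.0151. The fibrinogen chains fell together: fga averaged 2630 ± 2150 CPM in HepABC HCC and 13800 ± 4430 CPM in controls (SD, n = 5 each), and the log2 fold changes of fga, FGB and FGG were -2.47, -2.91 and -2.46.

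In CreLox HCC 2 of 30 positive genes were downregulated, or 6.67% beside 1.81% of all genes, with a median of -0.49. One was c7b, a terminal complement component, with 15.4, 9.94, 17 and 13.5 CPM in fish 604, 605, 623 and 624 against 420, 566, 80.8 and 66 CPM in controls 621, 622, 628 and 630 (log2 fold change -4.39, SE 0.76, adjusted p = 0.0162 from edgeR). The other was hamp, which encodes the iron hormone hepcidin, with 58.1, 36.8, 25 and 45.2 CPM in fish 604, 605, 623 and 624 against 277, 199, 167 and 122 CPM in controls 621, 622, 628 and 630 (log2 fold change -2.25, SE 0.49, adjusted p = 0.0321 from edgeR). Neither overlapped its controls, though c7b lost its call without fish 604 or fish 605 (highest adjusted p = 0.0565) and hamp lost its call without any one of fish 604, 605, 623, 621, 622 and 628 (highest adjusted p = 0.0981). Leaving out fish 624 raised the number of positive genes called lower in CreLox HCC to 9, and leaving out fish 604 reduced it to 0. In the HepABC experiment hamp overlapped between groups (log2 fold change -0.96, SE 0.54, adjusted p = 0.195 from edgeR). CreLox zebrafish without HCC had 24.2 and 4.57 CPM of hamp in fish 609 and 625, below all Cre driver controls (log2 fold change -3.77, SE 0.70, adjusted p = 0.0746 from edgeR). The fibrinogen chains were not called in CreLox HCC, with log2 fold changes of -0.49 for fga, -0.52 for FGB and -0.60 for FGG.

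Negative acute phase genes, whose products fall during the response in mammals, were lower in HepABC HCC too. There 9 of 10 were downregulated, or 90% beside 16.2% of all genes, and none upregulated, with a median log2 fold change of -2.23. ahsg2, a fetuin gene, averaged 21.6 ± 16.1 CPM in HepABC HCC and 3860 ± 753 CPM in controls (SD, n = 5 each), a log2 fold change of -7.54 (SE 0.70, adjusted p = 6.24e-05 from edgeR). RBP4, the carrier of retinol, and the apolipoprotein genes apoa1b and apoa2 followed at -3.53, -2.90 and -2.80, and the transport protein genes TTR and tfa stood at -2.06 and -1.86, all significant. In CreLox HCC only apoa2 was called (log2 fold change -0.89, SE 0.20, adjusted p = 0.0375 from edgeR), and that call was lost without fish 604, 605, 623, 621 or 622 in turn, while TTR and tfa had log2 fold changes of 0.06 and -0.24. The change in HepABC HCC exceeded that in CreLox HCC significantly for 8 of 10 negative genes and 20 of 30 positive genes, in the downward direction, as it did for 994 of all 18645 genes; 1 positive gene, the FN1 identifier ENSDARG00000019815, differed in the other direction.

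**Figure D4:**
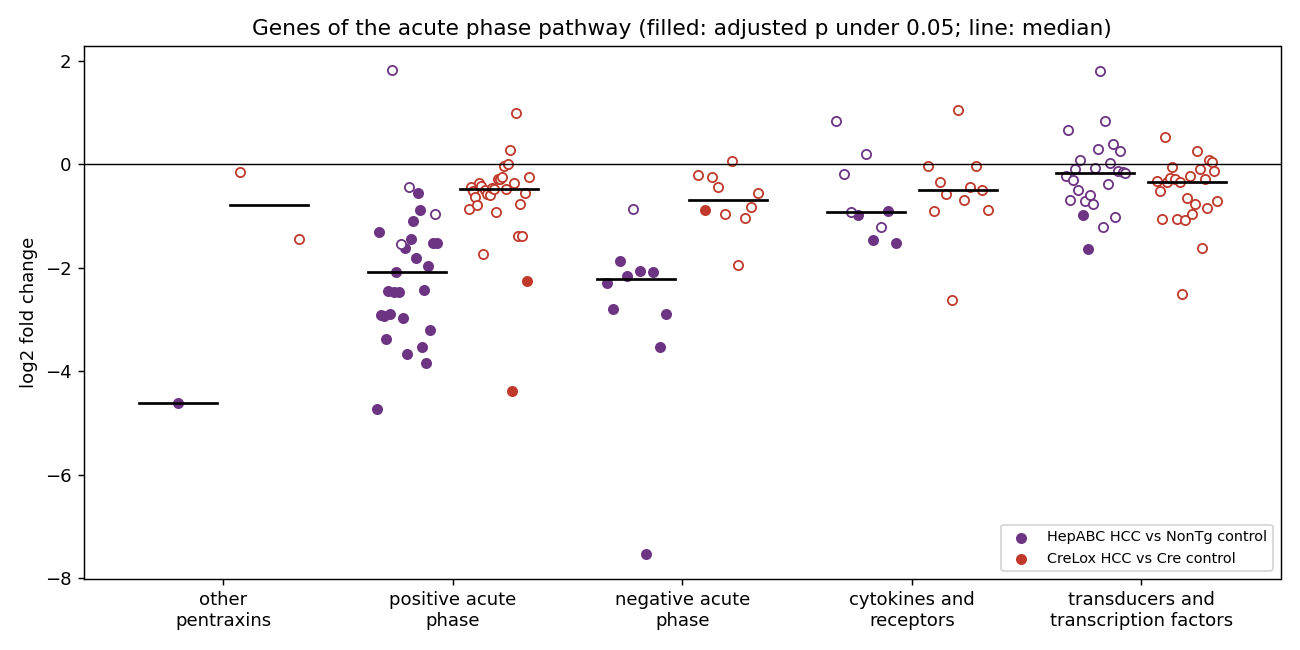
Log2 fold change of each gene (points) of 5 lists of the acute phase pathway in HepABC HCC and CreLox HCC, each against its own controls; filled points have an adjusted p under 0.05 and black lines mark medians. In HepABC HCC positive genes (median -2.08) and negative genes (median -2.23) both lie low, whereas transducers and transcription factors lie near 0 (median -0.16).

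Signalling genes upstream of the acute phase had medians nearer 0 in HepABC HCC, at -0.92 for cytokines and receptors and -0.16 for transducers and transcription factors. Of 9 cytokine and receptor genes tested in HepABC HCC, 4 were downregulated, or 44.4% beside 16.2% of all genes, all receptors or their subunits. On the log2 scale il6st stood at -1.53 (SE 0.34, adjusted p = 0.00614 from edgeR), lifra at -1.46, tnfrsf1b at -0.98 and il6r at -0.91. The levels of il6st, lifra and il6r overlapped between the groups. For il6st, fish 317E9 with HCC had 48.2 CPM and control 317C1 had 45.1 CPM. With library size alone none of the 4 was called and their log2 fold changes were -0.69, -0.64, -0.09 and -0.08; the il6r call was in addition lost without any one of 8 fish. Among 25 transducers and transcription factors 2 were downregulated, or 8% beside 16.2% of all genes, and this count was 6 without fish 317E9; limma voom called 5 in either direction. STAT3 had 10.1, 20.8, 11.2, 13.5 and 9.73 CPM in fish 317E5, 317E6, 317E9, 317E10 and 317E11 with HCC, against 19.5, 23.7, 51.9, 50.4 and 46.4 CPM in controls 317C1, 317C2, 317C4, 317C5 and 317C8, with fish 317E6 above control 317C1 (log2 fold change -1.64, SE 0.34, adjusted p = 0.0038 from edgeR). The kinase gene JAK1 stood at -0.98 (SE 0.27, adjusted p = 0.0162 from edgeR). Controls 317C1 and 317C2 had 85.4 and 85.3 CPM of JAK1, close to fish 317E5 with HCC at 82.4 CPM. Controls 317C4, 317C5 and 317C8 had 194, 175 and 151 CPM. Controls 317C1 and 317C2 were also the lowest controls in STAT3, il6st, crp2 and crp5. The calls of STAT3 and JAK1 were lost with library size alone, where STAT3 stood at -0.75 and JAK1 at -0.11 and 11 of the 25 genes were called higher.

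CEBPB, a transcription factor of acute phase promoters, had a log2 fold change of -0.39 in HepABC HCC (adjusted p = 0.234 from edgeR), which turned to 0.47 with library size alone. The SOCS3 genes, feedback inhibitors that STAT3 induces, were not called in HepABC HCC, at -0.60 for ENSDARG00000025428 and -0.77 for ENSDARG00000026611, and with library size alone these turned to 0.29 and 0.05. In CreLox HCC edgeR called none of 11 cytokine and receptor genes and none of 25 transducers and transcription factors. Of these, 4 and 7 had an unadjusted p under 0.05, beside 3952 of all 16837 genes. DESeq2 called 2 and 5, beside 1063 genes higher and 1065 lower, and limma voom called none and 1. The SOCS3 gene ENSDARG00000025428 had 4.48, 6.97, 1.74 and 4.69 CPM in fish 604, 605, 623 and 624 with HCC, against 33.6, 8.21, 31.3 and 25.4 CPM in controls 621, 622, 628 and 630, which did not overlap (log2 fold change -2.50, SE 0.72, adjusted p = 0.0777 from edgeR). STAT3 stood at -0.35 and CEBPB at -0.10 in CreLox HCC.

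The genes whose pattern over the 20 fish was most like that of crp1, by Pearson's r of log2(CPM + 0.1) after subtraction of each experiment's mean, were KCTD9 (r = 0.909), ESR1 (0.886), MGAT4B (0.884), CLPX (0.878) and ACSS1 (0.873), out of 12328 genes compared. These coefficients are a description: the fish share groups and scaling, and groups far apart raise any r. The oestrogen receptor gene ESR1 averaged 1.33 CPM in CreLox HCC, 1.46 CPM without HCC and 4.28 CPM in Cre driver controls, and 0.558 CPM in HepABC HCC and 2.6 CPM in non-transgenic controls. The mitochondrial acetyl-CoA synthetase gene ACSS1 averaged 15.1, 13.5 and 97.4 CPM in the same CreLox groups, and 15.6 CPM in HepABC HCC and 192 CPM in non-transgenic controls. The most similar gene was SLC12A7 for crp2 (r = 0.928), zgc:172225 for crp3 (0.947), csf1b for crp5 (0.894), SCUBE2 for hp (0.828) and si:ch211-212i14.4 for leap2 (0.838).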

How the data were processed

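Per the labels and the study's methods, the authors prepared strand-specific liver mRNA libraries, trimmed adapters, aligned reads to GRCz11 with STAR 2.6.1b and counted them with featureCounts 1.6.3; optical duplicates were removed in the CreLox experiment, and no removal is described for HepABC. The deposited values are unnormalized counts per Ensembl gene. From these, edgeR 4.0.16 (R 4.3.3; TMM, filterByExpr, glmQLFit, glmQLFTest) was fitted to the 10 libraries of each experiment, and to all 20 for the difference between models. p-values measure the spread between fish. Each SE of a log2 fold change is its absolute value divided by the square root of the F statistic of the edgeR test. It is thus derived from the test and was not fitted separately. No libraries were duplicates (lowest chi-square per degree of freedom 59.7).

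Members and lists were chosen with earlier results of these data known. Symbols came from a table naming 29201 identifiers; 13 wanted symbols were not matched. Besides every member, the genes named were up to 4 called genes of largest change per list and HCC model, all other pentraxins passing the filter, a few pathway genes fixed by name, and the genes most like each member with means of at least 1 CPM in each experiment; marker genes, and the FN1 and SOCS3 identifiers singled out, are named beside counts. Table symbols such as FN1, PTX3 and SOCS3 were matched to listed zebrafish names after the table was seen, and several identifiers can share a symbol. The exact test of crp1 was added after seeing the data. Alternatives were DESeq2 1.42.0, its size factors, library size alone, no filter beyond 1 count, a stricter filter of 10 counts per library, sample-weighted voom in limma 3.58.1, the compared groups alone, and each fish left out in turn. The scripts were also run on simulated data in which all genes had a common spread. That run does not represent the wide spread of the members and says nothing about their calls.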

Additional observations from a re-analysis of the deposited data

Results flagged for a closer look

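Extreme fish were sought in 24 sets of member values. The cut-offs would mark about 1 in 20 sets by chance if CPM were normally distributed, which was not tested for these widely varying members. Within HepABC HCC, fish 317E9 stood apart from the other 4 in crp2, at 76.4 CPM, and in crp1, at 0.0272 CPM, which is a single count. Since the other 4 had no count of crp1, any count in fish 317E9 would have been marked. Within CreLox HCC, fish 604 stood apart as the lowest in crp3, at 174 CPM, and fish 605 as the highest in leap2, at 101 CPM.

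The change of crp3 in HepABC HCC minus that in CreLox HCC was -2.42 on the log2 scale (SE 0.74) in the fit of all 20 libraries. It was flagged for being past the threshold in that fit, but it was past it in only 10 of 24 alternatives. The CreLox values enter this fit, and nothing is read from the threshold. The change of hp ran in opposite directions, with every fish with HCC below the control mean in the HepABC experiment and above it in the CreLox experiment; the difference was -3.70 (SE 1.38) on the log2 scale, and no test of it is given. Since the members were chosen with CreLox values known, both differences are descriptions.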

How the results depend on the processing

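The calls of crp2 and crp3 in HepABC HCC held under all 16 alternatives run, with log2 fold changes of -4.50 to -2.77 and -4.59 to -3.26. The log2 fold change of leap2 in HepABC HCC turned to 0.23 with library size alone. Members past the threshold in CreLox HCC numbered 4 with DESeq2, which called 1063 genes higher and 1065 lower there, against 403 and 304 with edgeR. With genes of at least 10 counts in every library, which removes crp1, there was 1 member, beside 277 genes higher and 264 lower. Limma voom also gave 1 member, beside 319 genes higher and 418 lower. Leaving out any single fish gave 2 members. In CreLox zebrafish without HCC 1 member was past the threshold with DESeq2, beside 214 genes higher and 135 lower. Leaving out single controls there gave 0 to 1, the 1 without control 628. For the difference between models 2 members were past it with DESeq2, beside 1686 genes higher and 1454 lower, and 0 with limma voom. Leaving out single fish there gave 0 to 2. Nothing is read from these member counts. Of the list genes in HepABC HCC, library size alone called 0 cytokine and receptor genes lower and 1 higher, and 0 transducers lower and 11 higher. It called 19 positive genes lower and 1 higher, and 9 negative genes lower. Over all 15864 genes it called 854 lower and 7955 higher. DESeq2 called 1 positive gene and 1 transducer higher in HepABC HCC. In CreLox HCC DESeq2 called 2 cytokine and receptor genes, 4 negative genes, 5 positive genes and 4 transducers lower, and 1 transducer higher. Where calls changed, the cause was not tested. No paired analysis was possible because no fish is shared between groups. Counts of 3 or fewer limit crp1, crp6 and crp7.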
